A study of Mus musculus with 6 samples.

Results

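The genes described here encode collagens, laminins and other glycoproteins of the extracellular matrix, together with lysyl oxidases and matricellular proteins. They were taken from a list of 40 gene symbols, of which 38 were measured among the 19938 genes tested. Of these 38 genes, 14 encode basement membrane proteins, 19 interstitial matrix proteins or their crosslinking enzymes, and 5 matricellular proteins. Fbn1 and Loxl2 were not analysed here, because no probe set carried either symbol alone.

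The samples were lung-derived endothelial cells of C57BL/6 mice (lECs) carrying a stably transfected pcDNA3.1/Hygro(-) plasmid. In L1CAM cells the plasmid held full-length mouse L1CAM, a cell adhesion molecule best known from neurons, and in control cells it was empty. Each group had 3 arrays, labelled as biological replicates. Both groups were grown to confluence over 4 days on plates coated with crosslinked gelatin, which is itself derived from collagen, and their medium held 20 percent serum and endothelial growth supplement. The labels give 1 line code per group and do not say whether a line is a clone or a pool, so an effect of L1CAM and a difference between the 2 lines cannot be told apart.

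Endothelial cells rest on a basement membrane, a thin sheet built from a laminin network and a collagen IV network that nidogens and the proteoglycan perlecan link to each other. Laminins are trimers of an alpha, a beta and a gamma chain, and endothelial basement membranes are known for the alpha 4 and alpha 5 chains. The interstitial matrix beyond it holds fibrillar collagens, fibronectin and elastic fibres. Lysyl oxidases crosslink its collagen and elastin, and matricellular proteins modulate how cells contact this matrix without being structural parts of it.

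All values are log2 expression values of 1 probe set per gene, so a difference of 1 is a doubling, and differences are L1CAM minus control. A gene was called where limma's adjusted p, corrected with Benjamini-Hochberg over all genes, was below 0.05. "Rose" and "fell" are used of called genes alone. L1cam read 10.49, 10.60 and 10.73 on the L1CAM arrays, against 6.50, 6.77 and 7.31 on the control arrays. Over all probe sets, array medians lay between 6.55 and 6.58 and lower quartiles between 5.01 and 5.04. The tested-gene median is the median over the 19938 tested genes on an array. It was higher than the array median. L1CAM replicate 1 stood apart. Its correlation with the other L1CAM arrays over all genes was 0.9948 and 0.9951, while the 4 other pairs within a group reached 0.9982 to 0.9986. With the control arrays it correlated at 0.9935 to 0.9952, so it lay about as close to the controls as to its own group. Where leaving it out changed a call described below, the value without it is given. Endothelial markers were present: Cdh5 (VE-cadherin) averaged 13.04 ± 0.02 in L1CAM and 13.12 ± 0.02 in control cells (SD, n = 3 each), while Vwf, at 6.84 and 6.85, lay close to the array median. Of 12 endothelial markers, Robo4 was called higher (0.44, limma adjusted p 0.01118, lost without control replicate 2 at 0.05712) and Cldn5 lower (-0.22, limma adjusted p 0.04456, lost without any array but L1CAM replicate 1 at 0.08017 to 0.1544). These 2 calls were 16.7% of the list, against 15.0% of all genes. In 8 of the 12, Cldn5 included, every L1CAM array lay below every control array. That held for 16.0% of all genes, and for 2652 of the 10092 genes brighter than the tested-gene median on 3 or more arrays. The summed linear level of the 12 ranged between 51930.1 and 53412.6 in L1CAM cells and between 54493.2 and 55122.3 in control cells. None of the 12 had both group means below the array median, and the part of this shift in the matrix differences was not tested.

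A total of 7 of the 38 matrix genes were called, 18.4%, against 15.0% of all genes tested. Fbln2, Lamb1, Fn1, Lama4, Lamb2 and Fbln5 fell in L1CAM cells, and Lox rose. Among all genes, 6.85% rose and 8.19% fell. In 16 of the 38, the 3 L1CAM arrays did not overlap the 3 control arrays (6 above and 10 below), which is 42.1% against 34.6% of all genes, where 18.6% lay above and 16.0% below. Brighter genes were called more often. Of those brighter than the tested-gene median on 3 or more arrays, 27.3% of 22 members and 25.8% of 10092 genes were called. Their groups did not overlap in 54.5% and 51.3%, so the members' shares lay near the background at like brightness. The median difference over the 38 genes was 0.01, against 0.02 over all genes, and their median absolute difference was 0.10, the same to 2 decimals as over all genes. In these bulk samples, fewer cells of a type and less RNA per cell cannot be told apart.

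**Figure D1:**
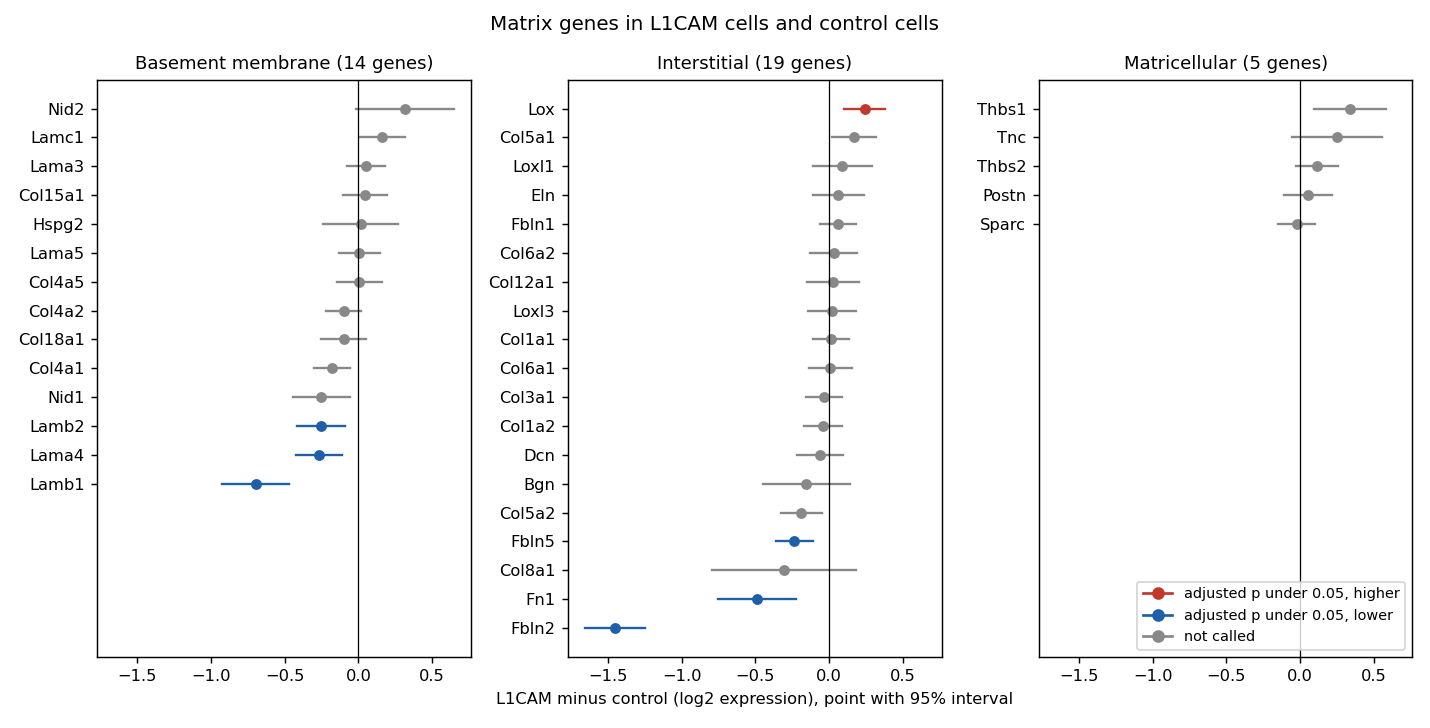
Difference in log2 expression, L1CAM minus control, for each of the 38 measured matrix genes (horizontal axis), with bars for the 95% confidence interval and genes grouped by class down the page. Most intervals cross 0, Fbln2 lies farthest from it at -1.45 and Lamb1 follows at -0.70.

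Fbln2 and Lamb1 were the members with the largest called differences, and they stayed called in each of the 6 fits that left out 1 array. Their promoter windows are shown for that reason, from 250 bases before to 50 bases after the gene's start, as given by RefSeq on GRCm38.p6. The Fbln2 window is chr6:91212514-91212813 on the plus strand and the Lamb1 window is chr12:31265043-31265342 on the plus strand. Capitals mark GC boxes, the letters GGGCGG on either strand, of which each window holds 2.
Fbln2: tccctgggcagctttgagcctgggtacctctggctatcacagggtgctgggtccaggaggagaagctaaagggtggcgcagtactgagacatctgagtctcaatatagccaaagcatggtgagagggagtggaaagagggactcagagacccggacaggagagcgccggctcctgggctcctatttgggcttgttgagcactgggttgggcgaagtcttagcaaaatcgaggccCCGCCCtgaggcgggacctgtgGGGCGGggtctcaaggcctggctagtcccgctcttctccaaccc
Lamb1: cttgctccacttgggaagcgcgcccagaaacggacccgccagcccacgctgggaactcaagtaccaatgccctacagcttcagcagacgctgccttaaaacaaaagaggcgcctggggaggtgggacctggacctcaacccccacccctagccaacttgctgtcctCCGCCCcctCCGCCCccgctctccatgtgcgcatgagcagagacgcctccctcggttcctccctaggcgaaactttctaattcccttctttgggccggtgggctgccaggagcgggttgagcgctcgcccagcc
RefSeq windows were matched for 24 of the 38 measured genes, 30 windows in all. The GC box stood in 63.3% of these 30 windows and in 35.7% of all 32851 windows. CCAAT stood in 33.3% and 37.4%, the AP-1 letters TGANTCA in 3.33% and 7.81%, and the TATA letters TATAAA in 16.7% and 13.6%. Both strands were searched, none of these motifs was required not to overlap another, and a match of letters is a description and no evidence of binding.

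Laminin chains gave 3 of the 7 calls: of 6 chains measured, Lamb1, Lama4 and Lamb2 fell and the other 3 were not called. That is 50.0% of a short list, against 15.0% of all genes. Of the 6 chains, 5 were brighter than the tested-gene median on 3 or more arrays, a set where 25.8% of all genes were called. Lamb1 (probe set 10395163, chromosome 12), the beta 1 chain, read 8.90, 9.26 and 9.19 in L1CAM cells, against 9.88, 9.75 and 9.80 in control cells. Every L1CAM array lay below every control array, and the lowest was L1CAM replicate 1. The difference was -0.70 (SE 0.10, adjusted p 0.004492 in limma), 1.62-fold lower, and the adjusted p ranged between 0.0003494 and 0.02729 as each array was left out.

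Lama4 (probe set 10362538, chromosome 10), the alpha 4 chain typical of vessels, read 10.68, 10.88 and 10.82 in L1CAM cells, against 11.09, 11.07 and 11.02 in control cells. Its difference of -0.27 (SE 0.07, limma adjusted p 0.03551) was 1.20-fold, with no overlap of groups. Lamb2 (probe set 10588942, chromosome 9), the beta 2 chain, read 10.34, 10.21 and 10.11 in L1CAM cells, against 10.43, 10.50 and 10.49 in control cells. L1CAM replicate 1 lay closest to the control arrays, the groups did not overlap, and the difference was -0.25 (SE 0.07, limma adjusted p 0.04882), 1.19-fold lower. Each call remained without L1CAM replicate 1 (Lama4 -0.21, adjusted p 0.03304, and Lamb2 -0.31, adjusted p 0.00717) and was lost without any of the other 5 arrays, where Lama4 had adjusted p between 0.05039 and 0.1229 and Lamb2 between 0.09168 and 0.158. With array medians set to 0, the adjusted p was 0.06788 for Lama4 and 0.05854 for Lamb2.

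The gamma 1 chain Lamc1, the common gamma partner of these chains, was not called. It read 11.57, 11.75 and 11.60 in L1CAM cells, against 11.53, 11.42 and 11.48 in control cells, a difference of 0.16 (SE 0.07, limma adjusted p 0.1505), with the L1CAM arrays above the control arrays. Lama5, the other endothelial alpha chain, read 10.99, 10.98 and 10.91 in L1CAM cells and 10.98, 10.88 and 11.01 in control cells. The groups overlapped, and the 95% interval of its difference ran from -0.13 to 0.14. Lama3, an alpha chain best known from epithelia, had both group means below the array median and a difference of 0.05 (limma adjusted p 0.6172).

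None of the 5 basement membrane collagens was called by limma, 1 of them had an unadjusted p below 0.05, and an ordinary linear model without shared variance, which called 2.91% of all genes, called 0 of them too. Col4a1 and Col4a2 encode the chains of the common collagen IV trimer. Col4a1 read 10.55, 10.56 and 10.48 in L1CAM cells, against 10.70, 10.71 and 10.72 in control cells, a difference of -0.18 (SE 0.05, limma adjusted p 0.05731). Col4a2 read 10.69, 10.71 and 10.64 in L1CAM cells, against 10.80, 10.76 and 10.79 in control cells, a difference of -0.10 (SE 0.05, limma adjusted p 0.2479). In both genes each L1CAM array lay below each control array. Col4a1 passed the threshold without L1CAM replicate 1, at an adjusted p of 0.04709.

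Col4a1 and Col4a2 lie head to head on mouse chromosome 8, and their RefSeq start sites on GRCm38.p6 are 21 bases apart. Their windows are shown because they share 78 bases, chr8:11312777-11312854, marked in capitals. The Col4a1 window is chr8:11312777-11313076 on the minus strand and the Col4a2 window is chr8:11312555-11312854 on the plus strand, each written 5′ to 3′.
Col4a1: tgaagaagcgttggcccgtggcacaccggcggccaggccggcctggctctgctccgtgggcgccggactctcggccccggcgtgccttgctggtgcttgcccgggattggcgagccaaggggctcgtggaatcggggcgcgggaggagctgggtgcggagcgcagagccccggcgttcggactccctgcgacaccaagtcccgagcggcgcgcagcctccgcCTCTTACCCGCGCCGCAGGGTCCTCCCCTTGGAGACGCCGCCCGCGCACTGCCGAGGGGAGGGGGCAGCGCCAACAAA
Col4a2: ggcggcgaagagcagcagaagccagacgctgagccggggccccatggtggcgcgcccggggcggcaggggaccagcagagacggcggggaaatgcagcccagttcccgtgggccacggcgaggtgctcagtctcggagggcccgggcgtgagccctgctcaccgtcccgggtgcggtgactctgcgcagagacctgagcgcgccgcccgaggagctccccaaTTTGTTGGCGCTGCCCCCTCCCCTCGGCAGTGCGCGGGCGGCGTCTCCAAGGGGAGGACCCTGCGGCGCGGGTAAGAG
The capitals are the same stretch read from opposite strands.

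Other basement membrane collagens differed little. Col18a1, the source of endostatin, read 11.49, 11.35 and 11.29 in L1CAM cells and 11.47, 11.44 and 11.52 in control cells, a difference of -0.10 (limma adjusted p 0.3777) that was -0.16 without L1CAM replicate 1. Col15a1, a related collagen, had a difference of 0.04 and Col4a5 one of 0.01, with both group means below the array median in each gene.

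The 3 linkers were not called by limma, with 1 unadjusted p below 0.05 and 0 calls by the ordinary linear model. Nid1, the nidogen that ties laminin to collagen IV, read 10.52, 10.79 and 10.65 in L1CAM cells, against 10.85, 10.87 and 10.99 in control cells (difference -0.25, SE 0.08, limma adjusted p 0.0821). Its groups did not overlap. Its relative Nid2 read 9.58, 9.23 and 9.14 in L1CAM cells and 9.27, 8.84 and 8.91 in control cells, a difference of 0.31 (SE 0.14, limma adjusted p 0.1962) with overlap, and 0.19 (adjusted p 0.326) without L1CAM replicate 1. Hspg2, the core protein of perlecan, had a difference of 0.01 and a 95% interval from -0.24 to 0.27.

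**Figure D2:**
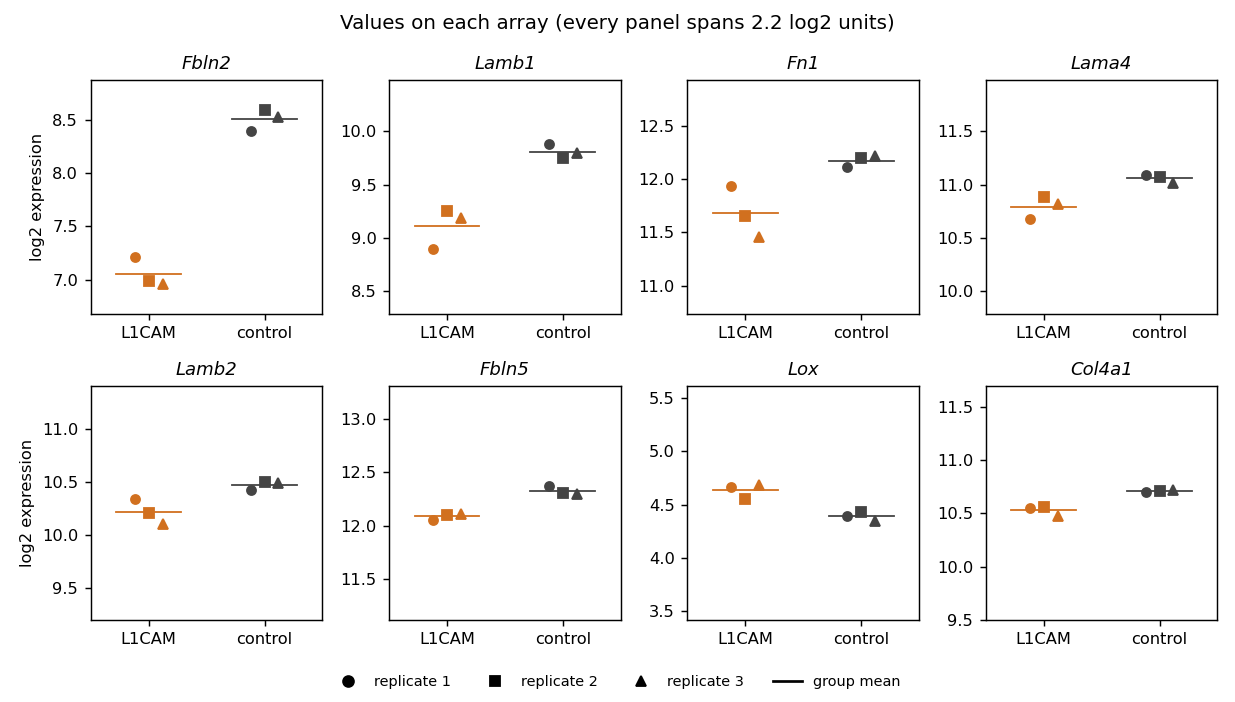
Log2 expression (vertical axis) of the 7 called matrix genes and Col4a1 on each array, L1CAM left of control in each panel, with symbols for replicates 1, 2 and 3 and a line for the group mean. Fbln2 shows the widest gap, with L1CAM arrays at 6.96 to 7.21 and control arrays at 8.39 to 8.60.

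Fibronectin and the fibulins held the other 3 genes that fell, among 5 measured genes of elastic fibres and fibronectin. That is 60.0% of a short list, against 15.0% of all genes called and 8.19% that fell. Of the 5 genes, 3 were brighter than the tested-gene median on 3 or more arrays, a set where 25.8% of all genes were called. Fbln2 (fibulin 2, probe set 10540085, chromosome 6), a glycoprotein that binds fibronectin, elastic fibre and basement membrane proteins, read 7.21, 6.99 and 6.96 in L1CAM cells, against 8.39, 8.60 and 8.53 in control cells. The highest L1CAM array was more than 1 log2 unit below the lowest control array. Fbln2 averaged 7.05 ± 0.14 in L1CAM and 8.51 ± 0.10 in control cells (SD, n = 3 each), a difference of -1.45 (SE 0.09, 95% interval -1.66 to -1.25, limma adjusted p 0.0002079), 2.74-fold lower. With each array left out the difference stayed between -1.53 and -1.41.

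Fn1 (probe set 10355403, chromosome 1), which encodes fibronectin, read 11.94, 11.66 and 11.46 in L1CAM cells, against 12.11, 12.20 and 12.21 in control cells. The L1CAM arrays spread widely and lay below the controls, with replicate 1 nearest to them. The difference was -0.49 (SE 0.11, limma adjusted p 0.02767), 1.41-fold lower. Without L1CAM replicate 1 it was -0.62, with an adjusted p of 0.0006798, and without any other array the call was lost, at adjusted p 0.06396 to 0.1039. Fbln5 (fibulin 5, probe set 10402211, chromosome 12), which is needed for elastic fibre assembly, read 12.06, 12.10 and 12.11 in L1CAM cells, against 12.37, 12.31 and 12.30 in control cells. Its difference was small and its spread narrow: -0.24 (SE 0.05, limma adjusted p 0.02494), 1.18-fold lower, called without L1CAM replicate 1 (adjusted p 0.02517) and not without any of the 5 other arrays, where the adjusted p lay between 0.07178 and 0.08255. Fbln1 (fibulin 1) and Eln (elastin) each had an uncalled difference of 0.06. Fbln1 read 6.22, 6.20 and 6.19 in L1CAM cells, against 6.19, 6.15 and 6.09 in control cells, all below the array median, with groups that just missed each other.

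Lox (probe set 10458894, chromosome 18), the lysyl oxidase that starts crosslinking of collagen and elastin, was the member that rose. It read 4.66, 4.55 and 4.69 in L1CAM cells, against 4.40, 4.43 and 4.35 in control cells, a difference of 0.24 (SE 0.06, limma adjusted p 0.03462), 1.18-fold higher. All 6 values lay below the lower quartile of their arrays, where signal and background were not separated, so this rise concerns a dim probe set. The call remained without L1CAM replicate 1 or 2 (adjusted p 0.03774 and 0.04684) and was lost without any other array (0.08987 to 0.126), and under quantile normalization its adjusted p was 0.05951. Loxl1 and Loxl3, its relatives, had uncalled differences of 0.09 and 0.02.

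None of the 9 interstitial collagens was called by limma, while 2 had an unadjusted p below 0.05 and the ordinary linear model called 0. Col1a1, Col1a2 and Col3a1, the chains of the main fibrillar collagens, had differences of 0.01, -0.04 and -0.03. Col1a1 read 7.63, 7.69 and 7.65 in L1CAM cells and 7.61, 7.65 and 7.68 in control cells, and its 95% interval ran from -0.11 to 0.13. Col5a1 and Col5a2, chains of the collagen V that fibrils form around, lay on opposite sides: Col5a1 at 0.17 (limma adjusted p 0.1234) and Col5a2 at -0.19 (limma adjusted p 0.07656). Col5a1 read 7.34, 7.29 and 7.31 in L1CAM cells, against 7.20, 7.03 and 7.20 in control cells. Col5a2 read 6.65, 6.63 and 6.62 in L1CAM cells, against 6.90, 6.74 and 6.83 in control cells. The groups did not overlap in either gene.

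Col8a1, a short-chain collagen of vessel walls, depended on 1 array. It read 12.09, 11.22 and 11.32 in L1CAM cells, against 11.99, 11.76 and 11.81 in control cells. L1CAM replicate 1 was the highest of the 6 arrays and the other L1CAM arrays were the lowest. The difference was -0.31 (SE 0.21, limma adjusted p 0.4009) over all arrays and -0.58 (limma adjusted p 0.001317) without L1CAM replicate 1. Col6a1, Col6a2 and Col12a1 had differences between 0.01 and 0.03. Of the small leucine-rich proteoglycans, which bind collagen fibrils, Bgn was at -0.16 and Dcn at -0.06, both uncalled and below the array median.

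Of the 5 matricellular genes, 0 were called by limma, 1 had an unadjusted p below 0.05 and 0 passed in the ordinary linear model. Sparc, a collagen-binding protein, was nearly the same in both groups: 13.29, 13.21 and 13.19 in L1CAM cells and 13.27, 13.25 and 13.24 in control cells, with a 95% interval of the difference from -0.15 to 0.10. Thbs1 (thrombospondin 1), an inhibitor of angiogenesis, read 7.87, 7.77 and 7.75 in L1CAM cells, against 7.30, 7.71 and 7.37 in control cells. Its groups did not overlap, with control replicate 2 close to the L1CAM arrays, and its difference of 0.34 (SE 0.11, limma adjusted p 0.07154) became 0.46 (limma adjusted p 0.02033) without that control. Thbs2, its relative, read 5.81, 5.86 and 5.72 in L1CAM cells, against 5.70, 5.72 and 5.61 in control cells, all below the array median. The groups touched without overlap, and the difference was 0.12 (limma adjusted p 0.2656). Tnc (tenascin C) read 9.40, 9.83 and 9.86 in L1CAM cells and 9.46, 9.29 and 9.58 in control cells, a difference of 0.25 (limma adjusted p 0.2632) that was 0.40 (limma adjusted p 0.01096) without L1CAM replicate 1. Postn (periostin), below the lower quartile in both groups, had a difference of 0.05.

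Set side by side, 3 of 14 basement membrane genes were called, all lower (21.4%), and 4 of 19 interstitial genes, 3 lower and 1 higher (21.1%), against 15.0% of all genes. Over all measured genes these shares lie close to each other. Among genes brighter than the tested-gene median on 3 or more arrays, they were 27.3% of 11 and 37.5% of 8, against 25.8% of all such genes. The median difference was -0.05 in the basement membrane class, 0.01 in the interstitial class and 0.12 in the matricellular class, against 0.02 over all genes. The order of the first 2 medians depended on which genes were kept. Above the tested-gene median on 3 or more arrays they were -0.10 over 11 basement membrane genes and -0.14 over 8 interstitial genes. The median of all such genes was 0.004. The 8 leave out Col5a2, Col6a1, Col6a2, Eln and Loxl3, which lay above the lower array median on every array. These were uncalled, with differences of -0.19, 0.01, 0.03, 0.06 and 0.02. Class medians at the lower cut-off were not computed. The interstitial median was also below 0 in the 5 fits that left out an array other than L1CAM replicate 1, at -0.045 to -0.009. Groups did not overlap in 7 of 14 basement membrane genes (1 above and 6 below) and 7 of 19 interstitial genes (3 above and 4 below). They did not overlap in 2 of 5 matricellular genes, both above, against 34.6% of all genes (18.6% above and 16.0% below). Of genes brighter than the tested-gene median on 3 or more arrays, 51.3% had groups that did not overlap. Among these brighter genes, groups did not overlap in 63.6% of 11 basement membrane genes (1 above and 6 below). The share was 50.0% of 8 interstitial genes (1 above and 3 below) and 33.3% of 3 matricellular genes (1 above). Of all 10092 such genes, 2529 lay above and 2652 below. No test between the classes was made.

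Averaged over its 19 genes, the interstitial class deviated from the control mean by -0.087, -0.144 and -0.126 on the L1CAM arrays, against 0.024, -0.019 and -0.004 on the control arrays. The basement membrane average was -0.108, -0.032 and -0.129 on the L1CAM arrays and 0.022, -0.037 and 0.016 on the control arrays, so L1CAM replicate 2 fell within the control range. The matricellular average was 0.092, 0.197 and 0.154 in L1CAM cells, against -0.026, 0.029 and -0.002 in control cells. The interstitial mean of -0.12 and its median of 0.01 differ in sign, and the class holds Fbln2 at -1.45 and Fn1 at -0.49.

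**Figure D3:**
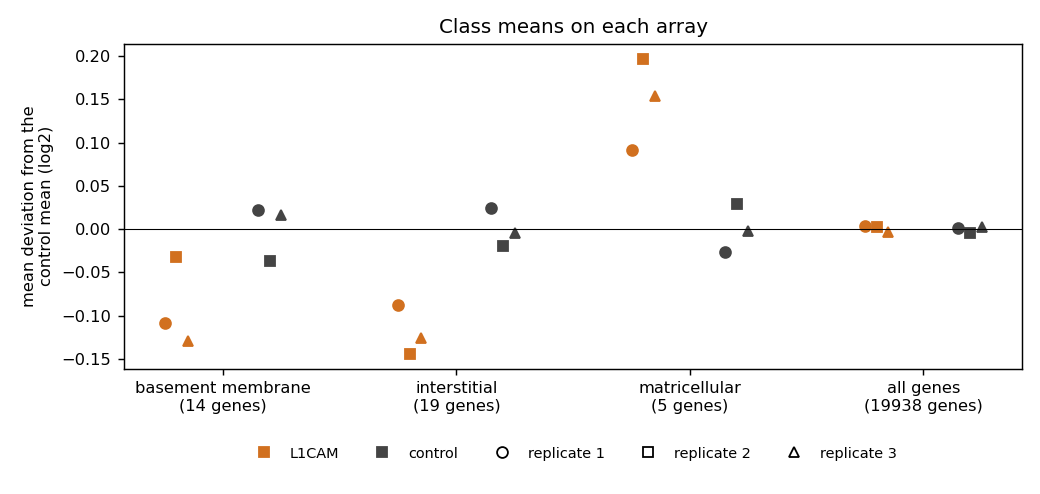
Mean deviation from the control mean in log2 units (vertical axis) for the basement membrane, interstitial and matricellular genes and for all genes on each array, L1CAM left of control. Interstitial L1CAM arrays lie at -0.144 to -0.087, matricellular L1CAM arrays at 0.092 to 0.197, and the basement membrane groups overlap.

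Beyond these 38 genes, 119 other genes of the matrix were measured, and 25 were called (21%, against 15.0% of all genes), 14 higher and 11 lower. The CCN family, matricellular proteins that bind integrins and growth factors, gave all 4 calls among 13 other matricellular genes (30.8%), while its member Ccn5 was not called (-0.01, limma adjusted p 0.9187). Ccn3 read 11.99, 12.22 and 12.12 in L1CAM cells, against 11.32, 11.06 and 11.16 in control cells, 1.91-fold higher (difference 0.93, SE 0.09, limma adjusted p 0.0009979). Ccn2 (connective tissue growth factor) read 8.35, 8.74 and 8.73 in L1CAM cells, against 7.75, 7.80 and 7.65 in control cells, 1.83-fold higher (limma adjusted p 0.003023). Ccn1 rose 1.59-fold (limma adjusted p 0.005238). Ccn4 moved the other way, at 7.88, 7.80 and 7.74 in L1CAM cells, against 8.70, 8.46 and 8.49 in control cells, 1.67-fold lower (limma adjusted p 0.001584). Ccn1, Ccn2, Ccn3 and Ccn4 were called whichever array was left out.

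Other basement membrane genes gave 3 calls of 20, which at 15.0% equals the share of all genes. Ntn4, a laminin-related netrin that can disturb laminin networks, rose by 0.61 (SE 0.08, limma adjusted p 0.004099), and Tinagl1, a basement membrane glycoprotein, rose by 0.55 (SE 0.06, limma adjusted p 0.002151). Pxdn, the peroxidase that crosslinks collagen IV, fell by 0.38 (limma adjusted p 0.01921), a call that remained without L1CAM replicate 1 (adjusted p 0.0006979) and was lost without any of the other 5 arrays (0.05208 to 0.08289). Ntn4 read 7.86, 8.07 and 8.15 in L1CAM cells, against 7.44, 7.47 and 7.36 in control cells, with no overlap.

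Of 35 other interstitial genes, 6 were called (17.1%, against 15.0% of all genes). Col13a1 and Col11a1 rose, by 0.37 and 0.27, and Ltbp3, Mmrn2, Ltbp1 and Ecm1 fell. Ltbp3 and Ltbp1 encode proteins that hold latent TGF-beta in the matrix and were lower by a difference of -0.65 (limma adjusted p 0.002158) and -0.59 (limma adjusted p 0.006678). Both were called whichever array was left out. Mmrn2, an endothelial matrix glycoprotein, had a difference of -0.65 (limma adjusted p 0.01044), a call lost without control replicate 2 or 3 (adjusted p 0.05004 to 0.05502). Ecm1, a secreted glycoprotein, fell by 0.25 (limma adjusted p 0.02524) and lost its call without L1CAM replicate 2 or 3 or control replicate 2 or 3 (adjusted p 0.06547 to 0.1008). Col13a1, a transmembrane collagen, lost its call without L1CAM replicate 2 or control replicate 2 or 3 (adjusted p 0.08612 to 0.09375). Col11a1, a fibrillar collagen, kept it without L1CAM replicate 1 and lost it without any other array (adjusted p 0.05832 to 0.1056).

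Genes of collagen maturation and secretion gave 6 calls of 26 (23.1%, against 15.0% of all genes), 3 in each direction. Of the 26, 20 were brighter than the tested-gene median on 3 or more arrays, a set where 25.8% of all genes were called. P3h2, a prolyl 3-hydroxylase, rose by 0.71 (limma adjusted p 0.00797), and Serpinh1, the collagen chaperone HSP47, rose by 0.47 (limma adjusted p 0.008646). Bmp1, a protease that trims procollagen, read 9.20, 8.59 and 8.61 in L1CAM cells, against 9.82, 9.76 and 9.73 in control cells, a difference of -0.97 (SE 0.15, limma adjusted p 0.007192). Fkbp14, a prolyl isomerase of the secretory pathway, fell by 0.54 and Plod2, a collagen lysyl hydroxylase, fell by 0.29, a call lost without L1CAM replicate 3 or control replicate 2 (adjusted p 0.05673 to 0.06077). Ctage5, which takes part in export of collagen from the endoplasmic reticulum, rose by 0.43, and its call was lost without any array other than L1CAM replicate 1 (adjusted p 0.06194 to 0.1153). P3h2, Serpinh1, Bmp1 and Fkbp14 were called whichever array was left out.

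Matrix receptors gave 6 calls of 25 (24.0%, against 15.0% of all genes). Of the 25, 18 were brighter than the tested-gene median on 3 or more arrays, a set where 25.8% of all genes were called. Itgav, the alpha V chain of integrins that bind fibronectin and vitronectin, read 10.04, 10.04 and 9.94 in L1CAM cells, against 10.60, 10.72 and 10.68 in control cells, a difference of -0.66 (SE 0.06, limma adjusted p 0.0008202). Sdc1, a heparan sulphate proteoglycan, fell by 0.23. Itgb5, Itga3 and Itga7 rose by 0.39, 0.35 and 0.30. Itgb5 was dim, with means of 6.28 in L1CAM and 5.90 in control cells, both below the array median. Itga7 averaged 6.58 in L1CAM cells, about the array median, and 6.28 in control cells, below it. Ddr2, a receptor for fibrillar collagen, read 6.04, 7.14 and 7.34 in L1CAM cells, against 5.65, 5.73 and 5.64 in control cells (difference 1.17, SE 0.30, limma adjusted p 0.03734). Its L1CAM arrays spread over more than 1 log2 unit, and the call was kept without L1CAM replicate 1 (difference 1.57, adjusted p 1.515e-05) and lost without any other array (0.1026 to 0.1258). Itgav was called whichever array was left out. Itgb5 and Itga3 lost their calls without L1CAM replicate 2 or 3 or control replicate 2 or 3, at adjusted p 0.0706 to 0.07907 for Itgb5 and 0.08034 to 0.09944 for Itga3. Itga7 lost it without any array but L1CAM replicate 1 (0.05454 to 0.1088), and Sdc1 without any but L1CAM replicate 2 (0.05666 to 0.1493).

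**Figure D4:**
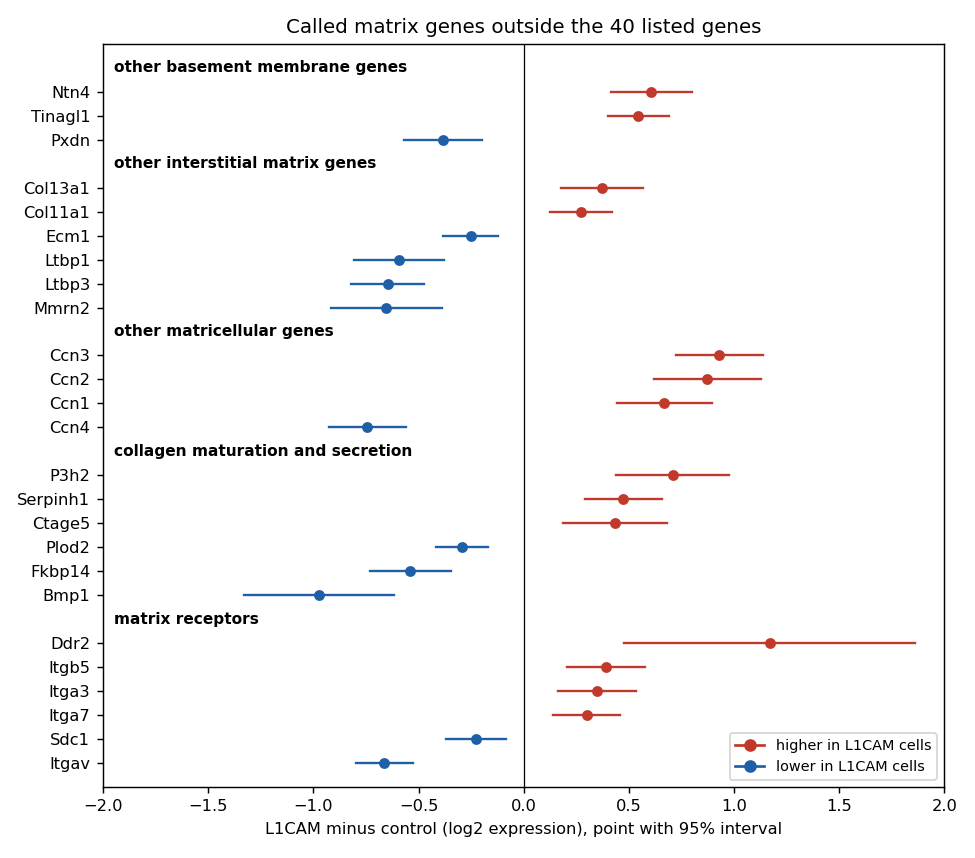
Difference in log2 expression, L1CAM minus control, with 95% confidence intervals (horizontal axis), for the called genes among the 119 other matrix genes, grouped by list. Ccn3 and Ddr2 are farthest above 0, at 0.93 and 1.17, and Bmp1 is farthest below it, at -0.97.

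Fibroblasts and mural cells also make interstitial matrix, so their markers are given beside these results. None of 10 fibroblast markers was called by limma, against 15.0% of all genes (2 had an unadjusted p below 0.05, and 0 passed in the ordinary linear model). Their summed linear level ranged between 555.1 and 618.6 in L1CAM cells and between 608.5 and 629.8 in control cells, with 7 of the 10 below the array median. Of 10 pericyte and smooth muscle markers, Cnn1 alone was called, higher, and the sums ranged between 667.6 and 720.1 in L1CAM cells and between 684.5 and 696.2 in control cells, with 8 of the 10 below the array median. Of 10 lung epithelial and 10 leukocyte markers, limma called 0 in either list, with 0 and 1 unadjusted p below 0.05 and 0 calls by the ordinary linear model. The epithelial sums ranged between 712.9 and 780.1 in L1CAM cells and between 719.9 and 750.1 in control cells. The leukocyte sums were 4817.2, 4630.7 and 5324.9 in L1CAM cells, against 5899.1, 5145.8 and 5453.6 in control cells. The lowest leukocyte marker difference was -0.47. Lists of 10 genes, most of them dim, are too short for so few calls to show that these cell types did not differ. The part of these cell types in the matrix differences was not tested.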

How the data were processed

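Total RNA of 6 cultures was measured on Affymetrix arrays, 3 per group. The authors deposited log2 values, 1 for each probe set. The submitters' processing notes name RMA and version 1.1 of Affymetrix Expression Console as the tools. RMA corrects background, normalizes between arrays and summarises probes. No filter on detection was applied, and dim probe sets were kept. The number of arrays limits the precision.

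Of 35512 probe sets, 21789 had 1 gene symbol, 1621 several and 12102 were not listed in the platform annotation. Those with 1 symbol were used, at the brightest probe set per gene (999 genes had several), which left 19938 genes. Levels were not compared between genes. Differences were fitted in R 4.3.3 with limma 3.58.1 (lmFit, then eBayes). Group was the single term, and tests were two-sided with Benjamini-Hochberg adjustment over all genes. Tables, motif counts and figures used Python 3.11.15, pandas 2.3.3 and matplotlib 3.10.9. Promoter windows came from RefSeq on GRCm38.p6.

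The matrix genes and all other lists were chosen with earlier results of these data known. Members called, or whose groups do not overlap, and the main collagen IV and laminin chains were named with values. Of the other lists, up to 4 called genes per direction were named, by absolute difference. On simulated data the fit recovered 76% of genes changed by 0.5, 90% by 1 and 100% by 2 or 4 log2 units, with 50 genes per size among 19938. It also called 3 unchanged genes. The simulated noise was independent between arrays, so no array stood apart as L1CAM replicate 1 did. Far fewer genes were changed than the 15.0% called in the data, so these shares do not give the power of the real comparison. Alternatives were other normalizations, a filter on dim probe sets, other treatment of several probe sets, other variance models, a replicate block and leaving out each array.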

Additional observations from a re-analysis of the deposited data

How the results depend on the processing

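Fbln2 was called in all 16 alternative fits, and Lamb1 in all but the ordinary linear model (adjusted p 0.06844). Against 7 members called over all arrays, 2 were called by the ordinary linear model (Fbln2 and Fbln5), which does not share variance between genes, and 12 with array weights, which called 26.0% of all genes. Leaving out 1 array gave 2 to 10, the highest without L1CAM replicate 1. The share of all genes called then ranged between 5.18% and 24.8%, also highest without L1CAM replicate 1, against 15.0% over all arrays. Quantile normalization called 8 members, 2 higher (Col5a1 and Thbs1) and 6 lower. Basement membrane calls (3) were 1 with array medians set to 0, 0 in the ordinary linear model, 5 with array weights and 1 to 4 with an array left out. Interstitial calls (4) were 2 in the ordinary linear model and 1 to 5 with an array left out, and matricellular calls (0) were 1 under quantile normalization, 1 with array weights and 0 to 1 with an array left out. Calls among other matrix genes (25) were 6 in the ordinary linear model, 43 with array weights and 13 to 42 with an array left out. The basement membrane median was -0.101 under the filter on dim probe sets and -0.097 to -0.018 with an array left out. The interstitial median was 0.038 with array medians set to 0, -0.140 under the filter and -0.045 to 0.009 with an array left out. The cause of these changes was not tested.

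The labels do not say whether replicate numbers mark shared experiments. Deviations from the group means correlated at -0.10, -0.10 and -0.03 between arrays of the same number, and at -0.09 to 0.12 between unlike numbers. With 3 arrays per group, 1 of which stood apart, these values cannot settle whether the samples are paired. With the number as a block, 3 members were called (Fbln2, Lamb1 and Nid2), 1 of them interstitial.

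Members near 0 changed sign in some fits, all uncalled. Under quantile normalization Col4a5 was -0.026, Lama5 -0.011, Col1a2 0.022, Col3a1 0.007 and Col12a1 -0.003. With array weights Col4a5 was -0.003 and Lama5 -0.011, and with medians set to 0 Sparc was 0.008. With an array left out, Col4a5 ranged between -0.044 and 0.043, Col15a1 between -0.003 and 0.092, Lama5 between -0.033 and 0.033, Hspg2 between -0.107 and 0.102, Col1a1 between -0.010 and 0.028, Col6a1 between -0.020 and 0.046, Col6a2 between -0.021 and 0.068, Col12a1 between -0.047 and 0.081 and Loxl3 between -0.023 and 0.069. Of all 1004 values of single genes under an alternative, 853 kept direction and side of the threshold, 111 lost a call, 14 gained one and these 26 turned.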

Other observations

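In some other matrix genes, chosen after their values were seen, L1CAM replicate 1 lay far above the other L1CAM arrays. Prelp, a leucine-rich matrix protein, read 8.75, 7.47 and 7.40 in L1CAM cells and 7.60, 8.09 and 7.89 in control cells, and its difference without L1CAM replicate 1 was -0.43 (limma adjusted p 0.04194), against 0.01 over all arrays. Pcolce2, an enhancer of procollagen trimming, read 9.04, 8.06 and 8.08 in L1CAM cells and 8.22, 8.51 and 8.47 in control cells, with -0.33 (limma adjusted p 0.03108) without that array and -0.01 over all. Mfap5, a microfibril protein, read 7.28, 6.02 and 6.31 in L1CAM cells and 5.72, 5.57 and 5.55 in control cells, all L1CAM arrays above the controls, with 0.55 (limma adjusted p 0.004105) without that array and 0.92 (limma adjusted p 0.06756) over all.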
